A study of Mus musculus with 8 samples.

Results

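The genes described here are 47 genes of glutathione metabolism and oxidative stress defence, chosen by name, and their RNA was followed in mouse embryonic fibroblasts without Stat5 to which 1 of 2 STAT5 mutants had been returned. A gene counted as measured when at least 1 probe set of the array was annotated with its symbol and no other, which held for 43 of the 47 genes, out of 18193 genes measured in that way in all. The list held 2 regulators, 5 genes of glutathione synthesis, recycling and cystine import, 2 further target enzymes of NRF2, 3 genes of the thioredoxin system, 3 catalase and superoxide dismutase genes, 5 glutathione peroxidases, 6 peroxiredoxins, 16 glutathione transferases and 5 genes of NADPH supply. Of the 4 that were not measured, Prdx1 was covered only by probe sets with several symbols, and Prdx5, Prdx6 and G6pdx had no probe set under their symbol in the annotation used.

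All 8 arrays came from C57BL/6 mouse embryonic fibroblasts without Stat5, into which a STAT5 mutant had been brought by retroviral infection. STAT5 is a transcription factor that JAK2 phosphorylates on a tyrosine after growth hormone binds its receptor. The mutant called EA is labelled as a change from EE to AA in the binding domain, and the mutant called YF has the Y694F change at that tyrosine. Cells of each mutant were left unstimulated or received growth hormone for 120 minutes, which gave 4 groups of 2 arrays that the series text calls biological duplicates. No array of cells with wild-type STAT5 or with an empty vector was analysed here, so a difference between EA and YF has no further group that would say which mutant departs from it. Each mutant has its own infected cells, and the mutant and the cell population that carries it cannot be told apart.

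Glutathione is a tripeptide made from glutamate, cysteine and glycine, and cells use it to reduce peroxides and to conjugate reactive compounds. Glutathione peroxidases and transferases spend it for these ends, glutathione reductase restores it with electrons from NADPH, and the thioredoxin and peroxiredoxin enzymes form a parallel system. Many of these genes are targets of NRF2 (encoded by Nfe2l2), a transcription factor that KEAP1 holds at low levels until oxidants or electrophiles inactivate KEAP1, and fibroblasts in culture express much of this programme without added stress.

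Values are log2 expression per probe set, and a gene is represented by its probe set with the highest mean over the 8 arrays. Differences were tested with limma over 45037 probe sets, and a gene passed where its Benjamini-Hochberg adjusted p was under 0.05. A large part of all probe sets (55%) formed a dense group of low values below 4, where the meaning of a difference is uncertain. Of the 43 genes, Gsta3 and Gstt2 lay in that low group in every group of arrays, and 40 had a mean of 4 or more. Replicate arrays had correlations of 0.996 to 0.998 across probe sets. The first principal component held 69.9% of the variance and separated EA from YF arrays, and YF with hormone replicate 1 stood apart on the second, at -55.8 against -14.3 to 32.6 for the other 7 arrays. Among the 43 genes the replicates differed most for Gsta2, by 1.06 in EA cells without hormone and 1.35 in EA cells with hormone.

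Stat5a RNA, a check of the introduced gene, was at 4.83 and 5.36 in EA cells without hormone, 4.28 and 4.87 in EA cells with hormone, 7.95 and 7.82 in YF cells without hormone and 8.51 and 7.87 in YF cells with hormone. On its brightest probe set it was lower in every EA array than in every YF array. The mutants thus also differed in the signal of that probe set, and which part of the gene or construct it covers was not analysed here. The second Stat5a probe set (2.36 to 2.53) and both probe sets of Stat5b were in the low group on all 8 arrays. Most fibroblast markers were abundant in both kinds of cell, and the summed level of the 10 listed (log2 of the sum of linear values) was 16.99 to 17.04 in EA and 17.11 to 17.15 in YF arrays. Within that list 5 of 10 markers were lower in EA cells, among them the surface protein gene Thy1 (an EA minus YF difference of -4.96) and the matrix proteoglycan gene Dcn. All 4 EA arrays of Dcn were in the low group (2.49 to 3.78) and its YF arrays were at 7.24 to 8.22, so the size of that difference is uncertain, and Lum was in the low group on all 8 arrays. Of 7 epithelial markers, Krt19 was higher in EA cells (5.20), with a summed level of 9.43 to 10.34 in EA and 5.43 to 6.22 in YF arrays. The other 6, Krt18, Epcam, Cdh1, Krt8, Krt14 and Krt5, stayed in the low group on all 8 arrays, where Krt18 also passed as higher from values of 2.28 to 3.10. Of 8 macrophage markers only Cd68 passed (3.15), with a summed level of 11.06 to 11.49 in EA and 9.07 to 9.89 in YF arrays, Csf1r was at 7.80 to 9.07 and did not pass, and Ptprc, Adgre1, Itgam and Fcgr1 were in the low group on all of them. Of 5 endothelial markers Tek was lower in EA cells (-1.58), with a summed level of 8.12 to 8.34 in EA and 9.46 to 10.07 in YF arrays, and Pecam1, Cdh5, Kdr and Tie1 were in the low group. Of 5 neural markers Nes was higher (1.37) and Sox2 lower (-1.47), Tubb3 passed as lower from values in the low group on 7 of 8 arrays, and Gfap and Sox10 were in the low group throughout, with a summed level of 10.63 to 10.97 in EA and 9.51 to 10.08 in YF arrays. No muscle or hepatocyte marker passed or left the low group. Over the whole array 22.9% of all 18193 genes passed in the same comparison. The markers that passed differ with the mutant, as do many of the genes below, and their part in the results was not tested.

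EA and YF fibroblasts differed in 21 of the 43 measured genes, and 11 of those 21 were glutathione transferases. Averaged over both treatments, 14 of the 43 genes were higher and 7 were lower in EA than in YF cells. Higher in EA cells were 8 cytosolic and 2 microsomal transferases, glutathione reductase, the cystine importer gene Slc7a11, Nqo1 and Hmox1. Lower in EA cells were the extracellular superoxide dismutase gene Sod3, the peroxidase genes Gpx3, Gpx7 and Gpx8, the mitochondrial transferase gene Gstk1, thioredoxin reductase 1 and malic enzyme 1. The share that passed was 48.8%, against 22.9% of all 18193 genes (12.3% higher and 10.5% lower), and among genes with a mean of 4 or more it was 50% of 40 against 36.2% of 10779. The median difference of the 43 genes was 0.08 on the log2 scale, against 0.02 for all genes, and the median absolute difference was 0.30 against 0.11. Among genes with a mean of 4 or more, the median absolute difference was 0.30 for the 40 genes and 0.26 for the 10779. In these bulk samples fewer cells of a type and less RNA per cell cannot be told apart.

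**Figure D1:**
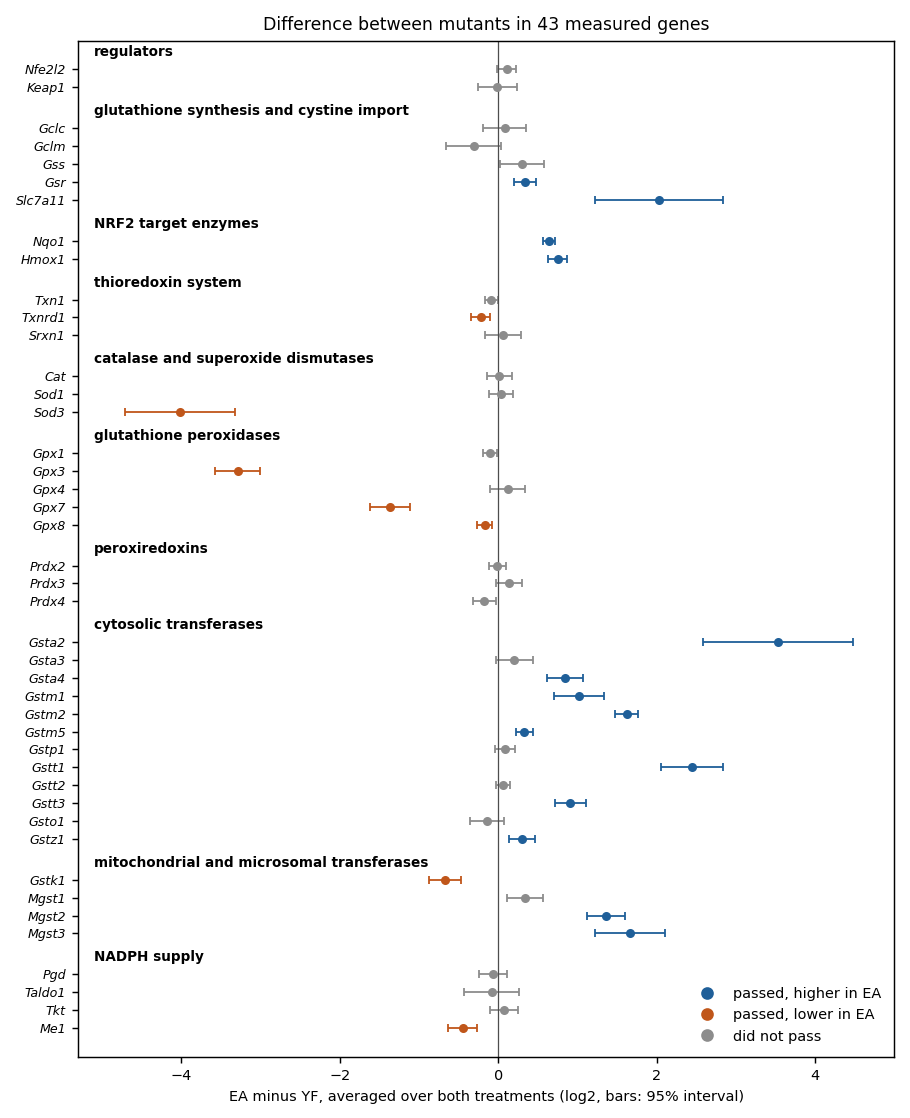
EA minus YF difference of each of the 43 measured genes, averaged over both treatments, on the log2 scale (horizontal axis), with genes ordered by role (vertical axis). Points are limma estimates from 8 arrays and bars their 95% intervals, blue points passed as higher in EA, orange points passed as lower and grey points did not pass. The blue points lie mostly among the transferases, and the largest negative values belong to Sod3 (-4.02) and Gpx3 (-3.29).

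Neither regulator of the programme passed. Nfe2l2, which encodes NRF2, was at 11.54 and 11.46 in EA cells without hormone, 11.41 and 11.36 with hormone, 11.32 and 11.21 in YF cells without hormone and 11.35 and 11.47 with hormone. The EA and YF values overlapped, and the average difference was 0.10 (SE 0.05, adjusted p = 0.247, 95% interval -0.01 to 0.22). A second, dimmer Nfe2l2 probe set read 4.54 and 2.71, 4.31 and 4.11, 6.88 and 6.52 and 5.59 and 4.08 in the same 4 groups. It was highest in unstimulated YF cells, and its average difference of -1.85 did not pass (adjusted p = 0.0802). Keap1, the adaptor that targets NRF2 for degradation, was at 10.79 and 10.99 in EA and 10.64 and 10.52 in YF cells without hormone and at 10.69 and 10.51 and 11.10 and 10.77 with hormone. EA arrays were the higher ones without hormone and the lower ones with hormone, and neither the average difference of -0.01 (SE 0.10, adjusted p = 0.95) nor the difference within a treatment passed.

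In glutathione synthesis the cystine importer and the reductase passed, and the ligase subunits and the synthetase did not. Gclc, the catalytic subunit of glutamate-cysteine ligase and the first step of synthesis, read 9.55 and 9.13 in EA and 9.35 and 9.51 in YF cells without hormone, and 9.49 and 9.56 and 9.34 and 9.19 with hormone. Its values overlapped, and its average difference was 0.08 (SE 0.11, adjusted p = 0.719). Gclm, the modifier subunit of that ligase, read 9.45 and 9.09 in EA and 9.70 and 10.06 in YF cells without hormone, and 9.80 and 9.61 and 9.56 and 9.87 with hormone. Its EA arrays were below the YF arrays without hormone and among them with hormone, and the average difference of -0.31 (SE 0.14, adjusted p = 0.254) did not pass. Gss, glutathione synthetase, gave 0.30 (adjusted p = 0.16), with every EA array above every YF array and no pass.

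Gsr, glutathione reductase, restores reduced glutathione from its oxidised form. Its levels were 12.20 and 12.15 in EA and 11.81 and 11.98 in YF cells without hormone, and 12.19 and 12.13 and 11.69 and 11.83 with hormone. All 4 EA arrays lay above all 4 YF arrays, in a narrow range, and the average difference was 0.34 (1.26-fold, SE 0.05, adjusted p = 0.0129). That call missed the threshold without EA replicate 1 (adjusted p = 0.053) and without EA with hormone replicate 1 (0.052), and the second Gsr probe set stayed in the low group throughout. Slc7a11, the transporter subunit that brings in cystine for glutathione synthesis, read 5.10 and 4.38 in EA cells without hormone, 4.62 and 5.43 with hormone, 2.42 and 2.86 in YF cells without hormone and 2.62 and 3.50 with hormone. Every EA array was above 4 and every YF array was inside the low group, so the difference of 2.03 (SE 0.32, adjusted p = 0.0122) has an uncertain size. With values below 4 set to 4 it was 0.88 (adjusted p = 0.0254).

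Nqo1 and Hmox1, both widely used as NRF2 readouts, were each higher in EA cells with narrow replicate spread. Nqo1, a quinone reductase, was at 12.81 and 12.90 in EA and 12.37 and 12.38 in YF cells without hormone, and at 12.88 and 12.91 and 12.12 and 12.08 with hormone. The YF arrays with hormone were the lowest and no EA array overlapped a YF array. The average difference was 0.63 (1.55-fold, SE 0.03, adjusted p = 0.000275). Hmox1, heme oxygenase 1, which degrades heme to biliverdin, was at 12.58 and 12.50 in EA and 11.59 and 11.71 in YF cells without hormone, and at 12.72 and 12.58 and 12.06 and 12.02 with hormone. Here the unstimulated YF arrays were the lowest and the mutants again did not overlap, with an average difference of 0.75 (1.68-fold, SE 0.05, adjusted p = 0.000731). Both passed without hormone and with hormone as well as on average. These 2 genes do not stand for the list, in which 14 of the 43 genes were higher on average and 7 were lower. Txnrd1 and Me1 were among the lower ones, and Gclc, Gclm and Srxn1 did not pass. The activity of NRF2 was not tested.

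**Figure D2:**
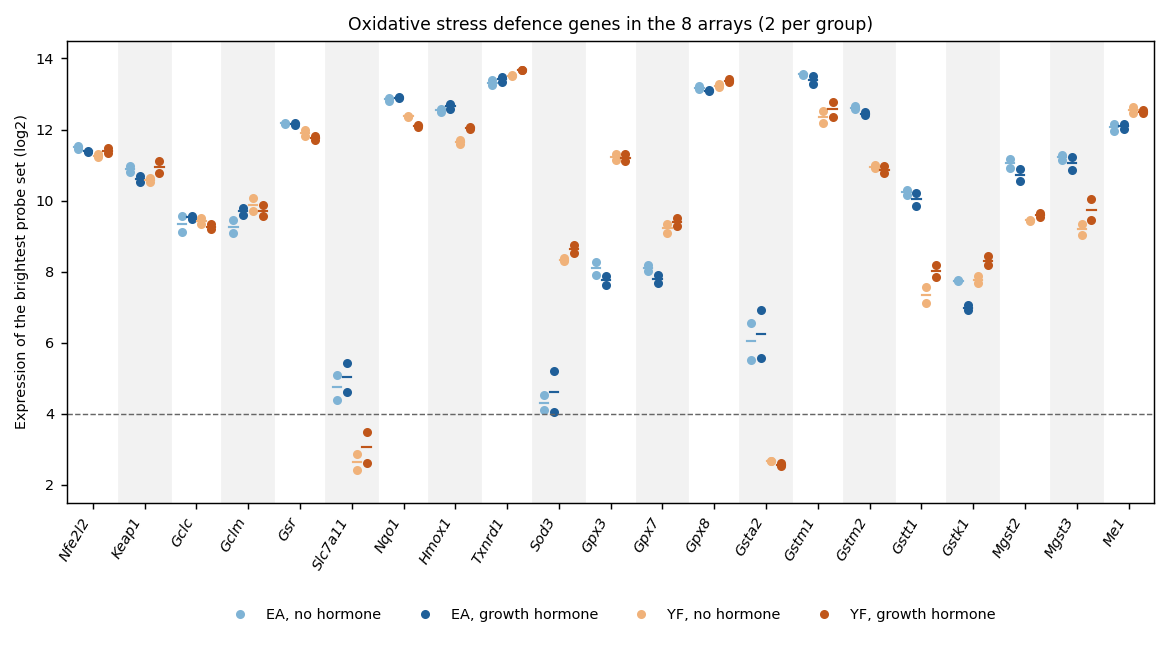
Log2 expression of the brightest probe set (vertical axis) on each of the 8 arrays for 21 genes (horizontal axis), with points for arrays, short lines for the means of 2 arrays and colours for the 4 groups. The dashed line is the bound of the low group at 4. EA and YF points do not overlap for Slc7a11, Nqo1, Hmox1, Sod3, Gpx3, Gpx7, Gsta2, Gstm1, Gstm2, Gstt1, Mgst2 and Mgst3, among others.

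Of the 3 thioredoxin system genes, 1 passed, with a small difference. Txnrd1, thioredoxin reductase 1, which passes electrons from NADPH to thioredoxin, read 13.26 and 13.38 in EA and 13.50 and 13.53 in YF cells without hormone, and 13.49 and 13.35 and 13.68 and 13.66 with hormone. All EA arrays were below all YF arrays by a small margin, and the average difference of -0.22 (SE 0.05, adjusted p = 0.0319) passed, while neither treatment alone did. The call missed the threshold with 6 of the 8 arrays left out in turn, with adjusted p of 0.063 to 0.109 in those 6, and after median centring (0.095). Of the other 2 Txnrd1 probe sets, 1 passed in the same direction (-0.71) from values around the low group, and 1 stayed inside it. Txn1, thioredoxin itself, gave -0.09 (adjusted p = 0.165), and Srxn1, the sulfiredoxin that repairs overoxidised peroxiredoxins, gave 0.06 (adjusted p = 0.743).

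Of the 3 catalase and superoxide dismutase genes 1 was lower in EA cells on average. Of the 5 glutathione peroxidases 3 were lower and none was higher on average, and 2 were lower without hormone. Over all genes 10.5% were lower on average, and 36.2% of genes with a mean of 4 or more passed in either direction. Sod3, the extracellular superoxide dismutase, was at 4.09 and 4.52 in EA cells without hormone, 5.19 and 4.05 with hormone, 8.29 and 8.38 in YF cells without hormone and 8.74 and 8.52 with hormone. The EA arrays sat just above the low group and far from the YF arrays, a difference of -4.02 (16.2-fold, SE 0.27, adjusted p = 0.000844). A second Sod3 probe set was inside the low group in all 4 groups. Sod1, the cytosolic enzyme, gave 0.03 (adjusted p = 0.782), and Cat, the peroxisomal catalase, gave 0.01 (adjusted p = 0.906). Of the 5 Sod1 probe sets 1 differed from that, with means of 9.28 and 9.68 in EA and 10.05 and 10.27 in YF cells without and with hormone, lower in EA cells (difference -0.68, adjusted p = 0.00607).

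Gpx3, the secreted plasma glutathione peroxidase, was at 7.91 and 8.27 in EA and 11.31 and 11.14 in YF cells without hormone, and at 7.88 and 7.64 and 11.31 and 11.12 with hormone. The mutants were far apart in both treatments, with an average difference of -3.29 (9.78-fold lower in EA, SE 0.11, adjusted p = 0.000106), the smallest adjusted p of the 43 genes. Gpx7, an endoplasmic reticulum peroxidase, was at 8.19 and 8.01 in EA and 9.35 and 9.09 in YF cells without hormone, and at 7.68 and 7.90 and 9.50 and 9.29 with hormone. It too was lower in every EA array, with a difference of -1.36 (2.57-fold, SE 0.10, adjusted p = 0.00106). Gpx8, the other peroxidase of that compartment, was at 13.14 and 13.21 in EA and 13.20 and 13.28 in YF cells without hormone, and at 13.11 and 13.08 and 13.43 and 13.33 with hormone. Its values overlapped without hormone, and the small average difference of -0.17 (SE 0.04, adjusted p = 0.0351) missed the threshold when any array but YF with hormone replicate 2 was left out (adjusted p of 0.066 to 0.12). Gpx1, the main cytosolic peroxidase, and Gpx4, which reduces lipid hydroperoxides in membranes, gave -0.11 and 0.12 and did not pass.

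None of the 3 measured peroxiredoxins, thiol enzymes that remove hydrogen peroxide, passed on its main probe set. The differences were -0.02 for Prdx2 (cytosol), 0.13 for Prdx3 (mitochondria) and -0.18 for Prdx4 (secretory pathway). A dimmer probe set of Prdx2 was lower in EA cells (difference -0.39, adjusted p = 0.0436), and so was one of Prdx4 (difference -0.20, adjusted p = 0.0108). Counting a gene as called when any of its probe sets passed would give 14 higher and 11 lower genes on average instead of 14 and 7 (58.1% of the 43, against 28.1% of all 18193 genes under the same rule), the 4 added ones being Sod1, Prdx2, Prdx4 and Tkt.

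Glutathione transferases, which join glutathione to electrophiles, formed the largest group, with all 16 listed genes measured. On average 10 were higher and 1 was lower in EA cells, against 12.3% higher and 10.5% lower of all genes. Their median difference was 0.59 on the log2 scale, against 0.02 for all genes and 0.045 for genes with a mean of 4 or more. Without hormone 10 were higher and none lower (8.28% and 6.74% of all genes). With hormone 8 were higher and 1 lower (6.5% and 7.03% of all genes). In either direction 68.8% of the 16 passed on average, 62.5% without and 56.2% with hormone. Of genes with a mean of 4 or more, 36.2%, 23.6% and 21.7% did. Of the 12 cytosolic genes, 8 were higher and none was lower on average. These were Gsta2 and Gsta4 of the alpha class, Gstm1, Gstm2 and Gstm5 of the mu class, Gstt1 and Gstt3 of the theta class and Gstz1, the zeta class enzyme of tyrosine breakdown. Gstp1 and Gsto1 did not pass (0.09 and -0.14), and Gsta3 and Gstt2 were in the low group in all groups of arrays.

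The mu and theta genes that were higher sit in 2 clusters of neighbouring genes. In the RefSeq gene order of GRCm38.p6 the mu cluster runs Gstm5, Gstm7, Gstm6, Gstm3, Gstm2, Gstm1 and Gstm4, with no other protein-coding gene inside. The average differences in that order were 0.33, -0.43, -0.02, 0.09, 1.62, 1.02 and -0.20, and only Gstm5, Gstm2 and Gstm1 passed. In the theta cluster, which runs Gstt3, Gstt1, Gstt4 and Gstt2, they were 0.91, 2.45, 0.02 and 0.06, and only Gstt3 and Gstt1 passed. Of the neighbours that did not pass, Gstm6, Gstm3, Gstt4 and Gstt2 were in the low group on every array (1.91 to 2.61). Their small differences therefore do not show whether expressed neighbours were alike. Gstm7 and Gstm4 were above the low group on every array (5.13 to 7.77) and did not pass. Differences between neighbours were not tested. Genes this alike can share hybridisation between probe sets, above all the ones whose names end in _x_at or _s_at, as for the brightest Gstm1 probe set.

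The 250 bases before the start sites of these 5 genes are shown because neighbouring genes passed in the same direction, with Txnrd1 beside them as a gene that was lower in EA cells. The sequences are from RefSeq (GRCm38.p6), each in the direction of its gene, and capitals mark a match to the core of the antioxidant response element that NRF2 binds, TGACNNNGC on either strand. That motif was chosen from background knowledge, after the values were known. The windows are chr3:107895604-107895853 on the plus strand for Gstm5, chr3:107986421-107986670 on the minus strand for Gstm2 and chr3:108017974-108018223 on the minus strand for Gstm1, whose start site farthest upstream is used. Those of the theta genes are chr10:75781423-75781672 for Gstt3, again for the start farthest upstream, and chr10:75797732-75797981 for Gstt1, both on the minus strand, and that of Txnrd1 is chr10:82858956-82859205 on the plus strand. Txnrd1 has 3 such windows, and the one shown was picked because it is the only one that holds the motif. Of the 6 lower genes with a promoter entry, Txnrd1 is also the only 1 that holds it. It therefore does not stand for the lower genes, and setting it beside the 5 higher genes is no test of the motif.
Gstm5: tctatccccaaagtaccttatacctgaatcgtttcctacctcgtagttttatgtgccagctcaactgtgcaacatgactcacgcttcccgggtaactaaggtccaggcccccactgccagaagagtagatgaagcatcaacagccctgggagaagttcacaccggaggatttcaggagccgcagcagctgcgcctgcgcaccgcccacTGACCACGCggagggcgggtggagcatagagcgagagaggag
Gstm2: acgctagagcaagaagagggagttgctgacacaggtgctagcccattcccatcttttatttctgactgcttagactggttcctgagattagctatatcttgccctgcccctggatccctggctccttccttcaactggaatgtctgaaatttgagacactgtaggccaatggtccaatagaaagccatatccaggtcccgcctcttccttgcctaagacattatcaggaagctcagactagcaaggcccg
Gstm1: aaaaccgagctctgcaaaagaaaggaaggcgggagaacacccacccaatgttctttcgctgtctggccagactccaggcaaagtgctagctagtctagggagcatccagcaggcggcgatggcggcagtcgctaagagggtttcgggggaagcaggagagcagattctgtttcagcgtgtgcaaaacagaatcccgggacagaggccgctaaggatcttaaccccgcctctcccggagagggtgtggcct
Gstt3: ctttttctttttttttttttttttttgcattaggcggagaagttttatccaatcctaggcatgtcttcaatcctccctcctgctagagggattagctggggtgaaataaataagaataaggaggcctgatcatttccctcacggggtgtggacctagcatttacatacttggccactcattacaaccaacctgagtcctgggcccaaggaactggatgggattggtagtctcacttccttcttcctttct
Gstt1: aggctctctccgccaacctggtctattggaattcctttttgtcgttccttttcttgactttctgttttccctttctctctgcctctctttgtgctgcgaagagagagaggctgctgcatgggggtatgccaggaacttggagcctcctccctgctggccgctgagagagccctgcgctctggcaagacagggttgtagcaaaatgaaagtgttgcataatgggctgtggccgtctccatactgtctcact
Txnrd1: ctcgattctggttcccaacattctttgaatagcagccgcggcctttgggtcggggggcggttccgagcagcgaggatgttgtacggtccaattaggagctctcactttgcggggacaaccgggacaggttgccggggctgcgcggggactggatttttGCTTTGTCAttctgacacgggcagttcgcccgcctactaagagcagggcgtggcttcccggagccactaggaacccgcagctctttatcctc
The core was found in Gstm5, as TGACCACGC starting 42 bases before the start site, and in 1 Txnrd1 window, as GCTTTGTCA starting 92 bases before it. The windows of Gstm2, Gstm1, Gstt3 and Gstt1, which were also higher in EA cells, hold no match to these letters.

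Over the list, 40 of the 47 genes had a promoter entry, and 9 of them (22.5%) held the core in at least 1 window, against 10.2% of all 32851 promoter windows and 11.5% of the 27025 genes with an entry. Among measured genes it was present in 1 of 11 that were higher in EA cells, 1 of 6 that were lower and 5 of 20 that did not pass. Those 5 were Nfe2l2, Gclm, Sod1, Gsta3 and Mgst1. A match describes the letters in this window alone.

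Gsta2, an alpha class transferase, was at 5.51 and 6.57 in EA cells without hormone, 6.92 and 5.57 with hormone, 2.66 and 2.66 in YF cells without hormone and 2.53 and 2.60 with hormone. The EA arrays lay above the low group with a wide replicate spread, and all YF arrays were inside it. The fitted difference was 3.53 (SE 0.38, adjusted p = 0.00331), and with values below 4 set to 4 it was 2.14 (adjusted p = 0.00486). With hormone it was 3.68, and 3.01 or 4.36 without replicate 1 or replicate 2 of the EA arrays with hormone. Gsta4, which conjugates the lipid peroxidation product hydroxynonenal, was higher by 0.84 (adjusted p = 0.00322), from 11.81 to 12.20 in YF arrays and 12.61 to 12.94 in EA arrays.

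Gstm1, a major mu class transferase, was at 13.54 and 13.56 in EA and 12.51 and 12.17 in YF cells without hormone, and at 13.50 and 13.29 and 12.78 and 12.37 with hormone. The lowest EA array was above the highest YF array, and the difference was 1.02 (2.02-fold, SE 0.13, adjusted p = 0.00556). Of its 4 probe sets, 3 passed on average, at 1.02, 1.01 and 0.72, and the fourth, near the low group, gave 0.47. Gstm2, its neighbour, was at 12.57 and 12.67 in EA and 10.99 and 10.92 in YF cells without hormone, and at 12.48 and 12.41 and 10.77 and 10.97 with hormone. The replicates lay close together and the mutants far apart, with a difference of 1.62 (3.07-fold, SE 0.06, adjusted p = 0.000127) that passed in both treatments and with each array left out. Gstm5 read 12.70 to 12.92 in EA arrays and 12.30 to 12.71 in YF arrays, was higher in EA cells on average (0.33, adjusted p = 0.00665) and without hormone (0.57, adjusted p = 0.00592), and did not pass with hormone (0.09, adjusted p = 0.353).

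Gstt1, a theta class transferase that acts on small halogenated compounds, was at 10.31 and 10.16 in EA and 7.11 and 7.58 in YF cells without hormone, and at 10.21 and 9.86 and 7.85 and 8.20 with hormone. Every EA array was above every YF array, with a difference of 2.45 (5.46-fold, SE 0.15, adjusted p = 0.000684), the largest in the list among genes whose levels were above the low group on all arrays and higher in EA. Gstt3 read 10.49 to 10.84 in EA arrays and 9.69 to 9.92 in YF arrays, a difference of 0.91 (adjusted p = 0.00173). Gstz1 gave the smallest of the transferase differences that passed on average, 0.30 (adjusted p = 0.0341), and did not pass with hormone.

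The transferases of membranes and mitochondria went in both directions. Mgst2, a microsomal enzyme that can also make leukotriene C, was at 11.16 and 10.93 in EA and 9.47 and 9.44 in YF cells without hormone, and at 10.89 and 10.55 and 9.55 and 9.64 with hormone. It was higher in every EA array, by 1.36 (2.57-fold, SE 0.10, adjusted p = 0.000914). Mgst3, a microsomal transferase with peroxidase activity, was at 11.15 and 11.29 in EA and 9.34 and 9.03 in YF cells without hormone, and at 11.23 and 10.87 and 10.05 and 9.44 with hormone. The mutants did not overlap, although 1 hormone-treated YF array came within 1 log2 unit of the lowest EA array, and the difference was 1.66 (3.17-fold, SE 0.17, adjusted p = 0.00308). A second Mgst3 probe set was inside the low group in every group. Mgst1, the most studied microsomal form, was higher in every EA array without passing (0.34, adjusted p = 0.0633).

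Gstk1, the kappa class transferase of mitochondria and peroxisomes, was the only 1 of the 16 listed transferases that was lower in EA cells. It read 7.76 and 7.73 in EA and 7.86 and 7.69 in YF cells without hormone, and 6.92 and 7.05 and 8.45 and 8.18 with hormone. The 4 unstimulated arrays overlapped, the hormone-treated EA arrays were the lowest and the hormone-treated YF arrays the highest. The difference was -0.03 without hormone (adjusted p = 0.954) and -1.33 with hormone (SE 0.11, adjusted p = 0.00315), so its average of -0.68 (adjusted p = 0.00446) comes from the hormone-treated arrays. The change of the mutant difference with hormone was -1.30 (SE 0.16) and did not pass (adjusted p = 0.156).

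Of the 4 measured NADPH-supplying enzymes, 1 passed. Me1, the cytosolic malic enzyme, was at 12.17 and 11.96 in EA and 12.47 and 12.63 in YF cells without hormone, and at 12.02 and 12.16 and 12.45 and 12.56 with hormone. All EA arrays were below all YF arrays, with a difference of -0.45 (1.37-fold, SE 0.07, adjusted p = 0.0127), and its second probe set gave -0.44 (adjusted p = 0.0188). Pgd, Taldo1 and Tkt of the pentose phosphate pathway gave -0.06, -0.08 and 0.08, and none passed. A dim Tkt probe set was lower in EA cells (difference -1.65, adjusted p = 0.0101), while the other 2 did not pass.

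The comparison was also made within each treatment, on arrays that the treatments do not share, though both use 1 estimate of the spread. Without hormone, 17 of the 43 genes passed, 13 higher and 4 lower in EA cells, against 15% of all genes (8.28% higher, 6.74% lower) and 23.6% of genes with a mean of 4 or more. With hormone, 16 passed, 11 higher and 5 lower, against 13.5% of all genes (6.5% higher, 7.03% lower) and 21.7% of genes with a mean of 4 or more. In both treatments 13 genes passed, all 13 in the same direction. They were Nqo1, Hmox1, Sod3, Gpx3, Gpx7, Gsta2, Gsta4, Gstm1, Gstm2, Gstt1, Gstt3, Mgst2 and Mgst3. The share of all genes that passed in both treatments was not counted, so this count has no background beside it. Slc7a11, Gstm5, Gstz1 and Me1 passed without hormone alone, and Gsr, Gpx8 and Gstk1 passed with hormone alone. None of these 7 had a change of the mutant difference with hormone that passed, so they are not shown to differ between treatments.

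**Figure D3:**
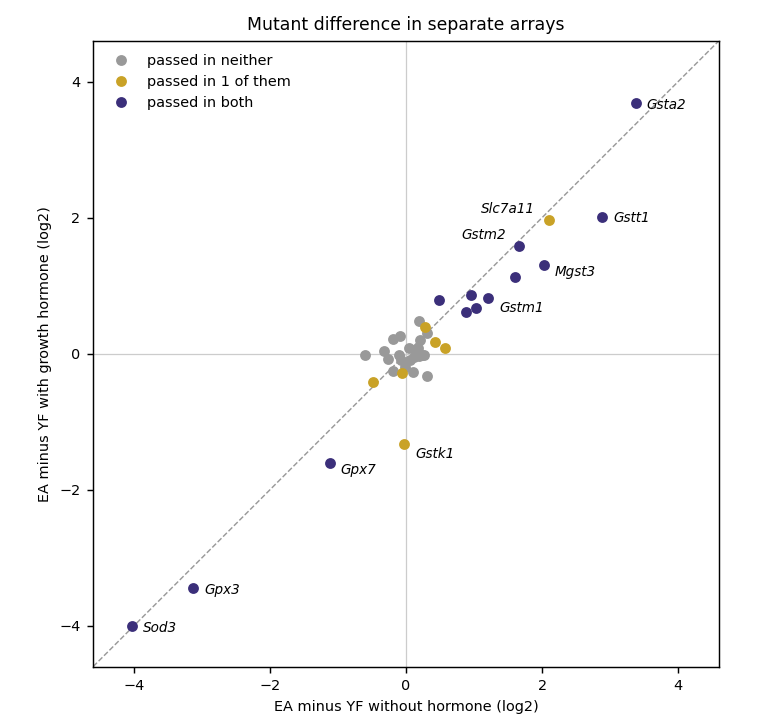
EA minus YF difference without hormone (horizontal axis, log2) against the same difference with hormone (vertical axis, log2) for the 43 genes, from separate arrays. Purple points passed in both (13 genes), yellow points in 1 of them (7 genes) and grey points in neither, and the dashed line marks equal values. Most points lie along the line, and Gstk1 lies below it, at -0.03 without and -1.33 with hormone.

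The genes with the largest differences had them in both treatments. Sod3 gave -4.03 without and -4.01 with hormone, and Gpx3 -3.13 and -3.45. Gstm2 gave 1.66 and 1.58. Gstt1 gave 2.89 without and 2.01 with hormone and Mgst3 2.03 and 1.30, and the change with hormone did not pass for either (adjusted p = 0.446 for both). The count without hormone fell from 17 to 11 without EA replicate 2 and also to 11 without YF replicate 2, and the count with hormone was 9 when only the arrays of its 2 groups entered the fit. The single-treatment calls of Gsr, Gpx8, Gstm1 and Mgst3 with hormone and of Slc7a11 and Me1 without it were each lost with most arrays left out in turn (5 to 8 of 8).

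Growth hormone for 120 minutes left these genes with no change that passed, in either mutant. In EA cells 0 of 43 passed (0.198% of all genes did), and 2 had an unadjusted p under 0.05 (6.91% over the array). In YF cells 0 of 43 passed (again 0.198% over the array), and 10 had an unadjusted p under 0.05 (14.1% over the array). Averaged over the mutants 0 passed (0.319% of all genes), and 3 had an unadjusted p under 0.05 (10.1%). For the difference between the responses 0 passed (0.022%), with 9 at an unadjusted p under 0.05 (11%). Among genes with a mean of 4 or more, an unadjusted p under 0.05 was held in YF cells by 10 of 40 listed genes and 2392 of all 10779. The same counts were 2 and 1133 in EA cells, 3 and 1673 on average and 9 and 1717 for the difference. So few genes pass on the whole array that these zeros say nothing particular about the list. None of the 80 probe sets of the list passed either, where 0.135%, 0.18%, 0.211% and 0.02% of all probe sets did in EA cells, in YF cells, on average and for the difference. No listed gene passed under the other settings tried.

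**Figure D4:**
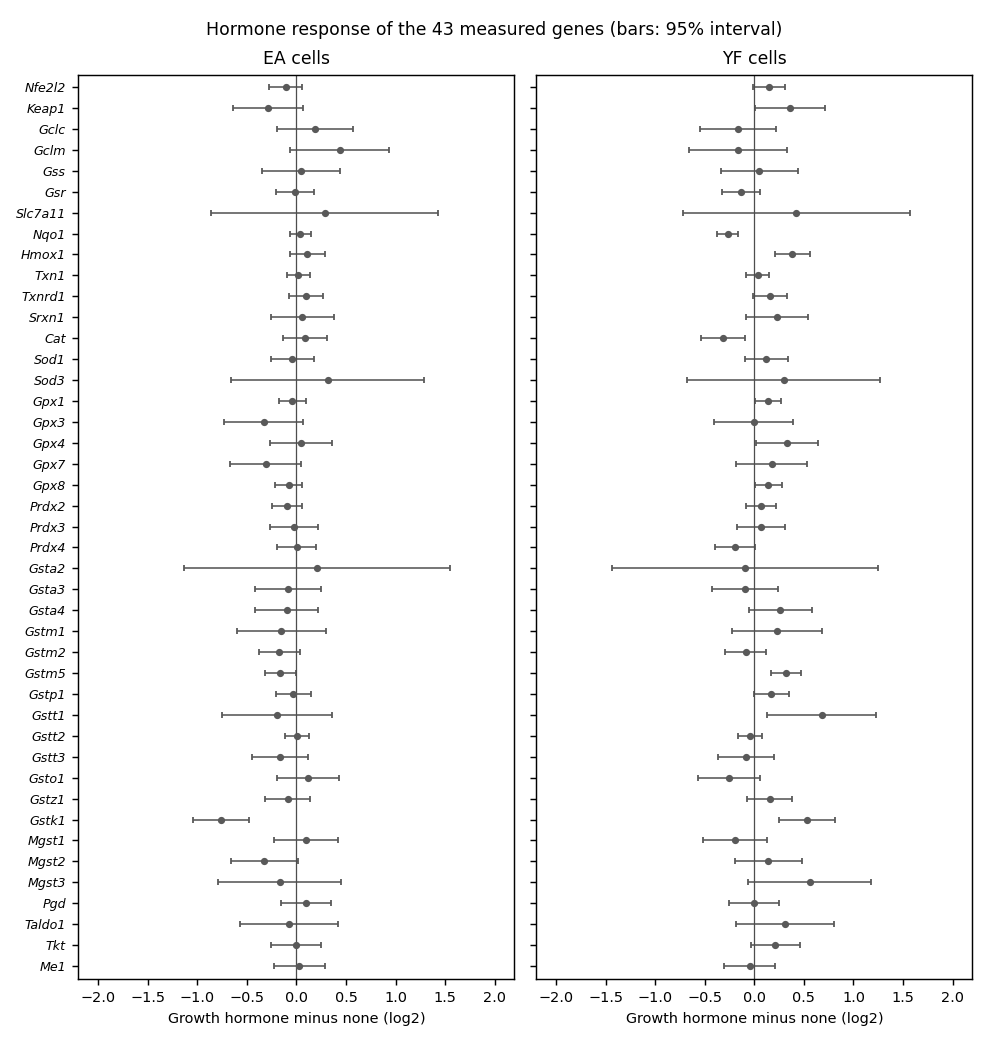
Growth hormone minus no hormone (horizontal axis, log2) for the 43 genes (vertical axis), in EA cells (left) and YF cells (right). Points are limma estimates from 2 arrays per group and bars 95% intervals, and no gene passed in either panel. Most points lie within 0.5 of 0, and the bars are widest for Gsta2, Slc7a11 and Sod3.

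The intervals bound the size of a response for most genes. Of the 40 genes with a mean of 4 or more, the 95% interval lay within 1 log2 unit of 0 for 37 in EA cells and for 36 in YF cells, and the estimate lay within 0.5 for 39 and 37. Gstk1 had the largest estimate in EA cells, -0.76 (95% interval -1.04 to -0.48, adjusted p = 0.185), and gave 0.53 in YF cells (adjusted p = 0.215). Gstt1 had the largest in YF cells, 0.68 (95% interval 0.13 to 1.23, adjusted p = 0.36). The smallest adjusted p in YF cells was that of Nqo1, -0.27 (adjusted p = 0.141), both treated arrays lying below both untreated ones. Hmox1 gave 0.38 in YF cells (adjusted p = 0.18), both treated arrays lying above. In EA cells these 2 genes gave 0.04 and 0.11. The hormone comparisons use the same arrays as the mutant comparisons.

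Beyond the listed genes, 106 further genes of the same pathways were followed, and 99 of them were measured. On average 15 were higher and 15 lower in EA than in YF cells (30.3%, against 22.9% of all genes), 17 and 7 without hormone (24.2%, against 15%), and 7 and 10 with hormone (17.2%, against 13.5%). The shares of genes with a mean of 4 or more were 36.2%, 23.6% and 21.7%. Some of the 99 lay in the low group, so neither background matches them, and an excess of passing genes is not shown. Among 12 regulators and partners of NRF2, 4 were lower in EA cells and none was higher. They were Nfe2l3, a relative of Nfe2l2 (-3.13), Bach2, a repressor that competes at the same elements (-1.25), the small MAF gene Maff (-0.78) and Park7 (-0.23). Among 15 measured genes of glutathione turnover and cysteine supply, 2 were higher and 1 was lower. Cth, which makes cysteine from cystathionine, was at 7.73 in EA and 5.92 in YF cells without hormone and higher by 1.58 on average. Slc3a2, the partner chain of the Slc7a11 transporter, was higher by 0.49, and Cdo1, which oxidises cysteine on the route to taurine, was lower, with a difference of -3.28.

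Of 23 further enzymes and transporters known as NRF2 targets, 7 were higher and 2 were lower. The largest differences were those of Aldh3a1 (-2.04, with a side in the low group), the biliverdin reductase gene Blvrb (1.31), the aldo-keto reductase gene Akr1c13 (1.29) and the exporter gene Abcc3 (1.26, with a side in the low group). In the thioredoxin and glutaredoxin group 3 of 17 were higher and 3 lower, among them Txnrd3 (0.75), the methionine sulfoxide reductases Msra (-0.45) and Msrb1 (-0.44) and Sesn2 (0.33). Mean Sesn2 levels were 8.63 in EA and 7.91 in YF cells without hormone, and 8.19 and 8.24 with hormone. Its average difference thus comes from the unstimulated arrays. Of 12 superoxide dismutases, peroxidases and oxidases, 1 was higher and 2 were lower. Xdh, xanthine dehydrogenase, which can produce superoxide, was at 8.84 in EA and 5.72 in YF cells without hormone and differed by 2.96 on average, and Nox4, an NADPH oxidase that produces hydrogen peroxide, gave -1.20. Sod2, the mitochondrial superoxide dismutase, gave -0.15.

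Of 9 other measured transferase genes 1 was higher and 1 was lower, Gsto2 (0.38, with a side in the low group) and the prostaglandin E synthase gene Ptges (-1.39), which belongs to the same membrane protein family as Mgst2 and Mgst3. Of 11 further NADPH genes 1 was higher, Rpia (0.63), and 2 were lower, Nadk (-0.55), which makes NADP from NAD, and H6pd (-0.46). With growth hormone, Chac1, which degrades glutathione, was the 1 gene of the 99 that passed in EA cells (1.01%, against 0.198% of all genes). Its levels there were 10.15 and 10.50 without and 8.38 and 8.63 with hormone, a difference of -1.82 (adjusted p = 0.0375). In YF cells it went from 9.69 and 9.81 to 8.31 and 8.31, a difference of -1.44 that did not pass (adjusted p = 0.051), and the difference between the responses was -0.38 (adjusted p = 0.446). Averaged over both mutants Chac1 was lower with hormone by 1.63 and passed, so its fall is not shown to belong to EA cells alone.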

How the data were processed

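RNA from 8 samples was measured on Affymetrix mouse expression arrays, 2 per group, after TRIzol extraction and biotin labelling per the labels' protocols. The authors deposited log2 values per probe set in 1 table. Per the submitters' processing notes GCOS (Affymetrix's array software) and RMA (a method that corrects, normalizes and summarises probe values) were used, with versions, order and settings not given in the sources used here. Array medians of 2.85 to 2.94 and 75th percentiles of 9.04 to 9.14 were alike, so the values were used as deposited. Background correction is part of the summarised values and could not be varied. Precision is limited by having 2 arrays per group.

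After removal of 64 control probe sets from 45101, 45037 were tested. The platform annotation gave 34945 of these a single gene symbol, 932 several symbols and 9160 no symbol. Gene identifiers of 34741 of the first kind were found in the RefSeq gene table of GRCm38.p6, and 0 symbols needed updating. It was used for names and gene order, and promoter sequences are from RefSeq of the same build.

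Groups came from each sample's label. limma 3.58.1 (R 4.3.3) was run by lmFit and eBayes with 4 group means over all 8 arrays, which left 4 residual degrees of freedom beside a prior of 1.26. There were 7 two-sided comparisons. Differences are the first side minus the second, SE is moderated, and p-values were adjusted by Benjamini-Hochberg over all 45037 probe sets. Every adjusted p in the text is limma's. The code was tested on simulated data.

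The genes and lists were chosen with earlier results of these data known. Array values are given for Nfe2l2, Keap1, Nqo1, Hmox1, Gclc, Gclm and Slc7a11, and for up to 4 passing genes of each role with the largest difference. Up to 4 passing genes of each further role are named by size. Alternatives were quantile normalization, median centring, a filter and a floor at 4, the replicate number as a block, fewer arrays in the fit, another variance prior, other probe sets and leaving out each array. Replicate numbers were not taken to pair samples, since same-numbered arrays deviated together with correlations of -0.30 to 0.37 over the 6 pairs of groups.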

Additional observations from a re-analysis of the deposited data

How the results depend on the processing

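Of 44 mutant differences of named genes that passed, refitted under 641 combinations of gene and setting other than a change of probe set, 549 kept their direction and their side of the threshold, 92 kept the direction and missed the threshold, and 0 reversed. The 21 listed genes called on average became 17 to 21 with 1 array left out. The 17 called without hormone became 11 to 15, with 11 reached without EA replicate 2 and without YF replicate 2. The 16 called with hormone became 11 to 13, and 9 (5 higher, 4 lower) with only the arrays compared in the fit. Over all probe sets, calls went from 7451 to between 5470 and 7763 on average, from 4847 to between 2488 and 5170 without hormone, and from 4579 to between 2372 and 4939 with hormone when 1 array was left out. The cause was not tested. With the replicate number as a block (replicate block), 18, 14 and 13 genes were called on average, without and with hormone, and 0 for hormone.

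The reversals were of differences that had not passed or of other probe sets. Keap1 ranged from -0.094 to 0.072 and Gclc from -0.024 to 0.189 with 1 array left out. Other probe sets gave 0.013 for Keap1, -0.086 for Gclc, 0.002 for Gclm, -1.85 for Nfe2l2, 0.004 for Txnrd1 and, with hormone, 0.007 for Sod3, of which those of Keap1, Txnrd1 and Sod3 lie in the low group. Values in that low group and the 2 arrays per group limit what can be seen.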
